A study of Mus musculus with 4 samples.

Results

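The interleukin-1 (IL-1) family and inflammasome genes were examined in tumor-associated macrophages (TAMs), as 10 genes of 16739 with a value in any library. The 10 genes were listed by symbol (Il1a, Il1b, Il1rn, Il1r1, Il1r2, Il1rap, Il18, Casp1, Nlrp3 and Pycard) and matched to the files by Entrez identifier, and all 10 were found. They were chosen by family and pathway after the differences between these same libraries had been seen, among them the increases of Il1a and Il1b. Differences of the 10 genes between the groups are therefore given as a description and not as a test.

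TAMs, sorted as CD45+ CD11b+ F4/80+ cells from subcutaneous B16-F10 melanomas 16 days after injection, were profiled by RNA sequencing in 2 WT and 2 Trim24-deficient libraries. B16-F10 is a melanoma line of C57BL/6 origin, and the C57BL/6 mice were 6 to 8 weeks old when injected. Trim24 floxed mice were crossed with LysM-Cre mice, which express the recombinase from the lysozyme M locus in myeloid cells, whereas the sample labels give the genotype as Trim24-/-. WT littermates served as controls, and the sources do not state whether they carried the floxed or the Cre allele, or whether a library held 1 mouse or a pool, so the spread between libraries may be partly technical.

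The libraries held 4476122 to 5172407 expected counts, at which 3 counts correspond to 0.58 to 0.67 CPM before TMM. Trim24 itself was at 5.82 and 2.12 CPM (expected counts scaled to the TMM-adjusted library total) in WT replicates 1 and 2, compared with 3.43 and 0.411 CPM in the Trim24-deficient-labelled replicates 1 and 2. The groups overlapped for the targeted gene, so the second group is named by its label throughout. Xist was at 6.51 to 10.9 CPM in WT and at 256 to 437 CPM in those labelled Trim24-deficient, with the Y-linked Ddx3y at 73.6 to 102 and 0.411 to 0.426 CPM, and sex and genotype label cannot be told apart. Macrophage and gate markers were high in every library, with a summed level of 16600 to 18700 CPM over the 10 listed genes in WT and 19700 to 20300 CPM in the other group. Transcripts of melanoma cells were also present, with 773 to 813 CPM summed over 7 genes in WT and 611 to 804 CPM in the Trim24-deficient-labelled libraries.

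IL-1 alpha and IL-1 beta are inflammatory cytokines that signal through the receptor IL1R1 and its partner IL1RAP to MyD88 and NF-kappaB. IL-1 beta and IL-18 are made as inactive precursors. They are cleaved by caspase-1, which is activated on an inflammasome built from a sensor such as NLRP3 and the adaptor ASC, the product of Pycard. The pathway is restrained by the receptor antagonist encoded by Il1rn and by the decoy receptor IL1R2. Macrophages are a main source of IL-1 beta in tumors, and transcript levels do not report cleavage or release of the cytokines.

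Set against each other per length, the members spanned a wide range in WT TAMs. FPKM, the fragments per kilobase of transcript scaled to the library total, was used for this order. Pycard was the most abundant, at 220.29 and 159.27 FPKM in WT replicates 1 and 2, above 97.0% and 96.2% of the genes listed in those libraries. Il1rn followed at 71.32 and 68.31 FPKM, Casp1 at 62.59 and 44.17 FPKM, Il18 at 35.51 and 37.45 FPKM and Il1b at 22 and 27.03 FPKM. Lower levels were found for Il1r2 (6.91 and 5.62 FPKM), Il1rap (5.12 and 5.22 FPKM), Nlrp3 (1.53 and 2.31 FPKM) and Il1a (0.52 and 1.24 FPKM). The adaptor and the protease were thus far more abundant than their sensor, with a Pycard to Nlrp3 ratio of 144 and 68.9 in WT and of 84.2 and 167 in the Trim24-deficient-labelled libraries.
The order of the 10 genes was the same in both WT libraries. Between neighbours in that order the 2 WT values did not overlap, but Casp1 stood closer to both Il1rn and Il18 than its own 2 WT values to each other, and the same held for Il1r2 beside Il1rap and for Nlrp3 beside Il1a, so these neighbours do not differ beyond their spread. Across all 4 libraries 3 of the 10 genes kept 1 rank, namely Pycard (rank 1), Il1r2 (rank 6) and Il1r1 (rank 10). In the Trim24-deficient-labelled libraries, Il1b moved from rank 5 to ranks 4 and 3 and Il1a from rank 9 to rank 7, past Il1rap and Nlrp3.

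**Figure D1:**
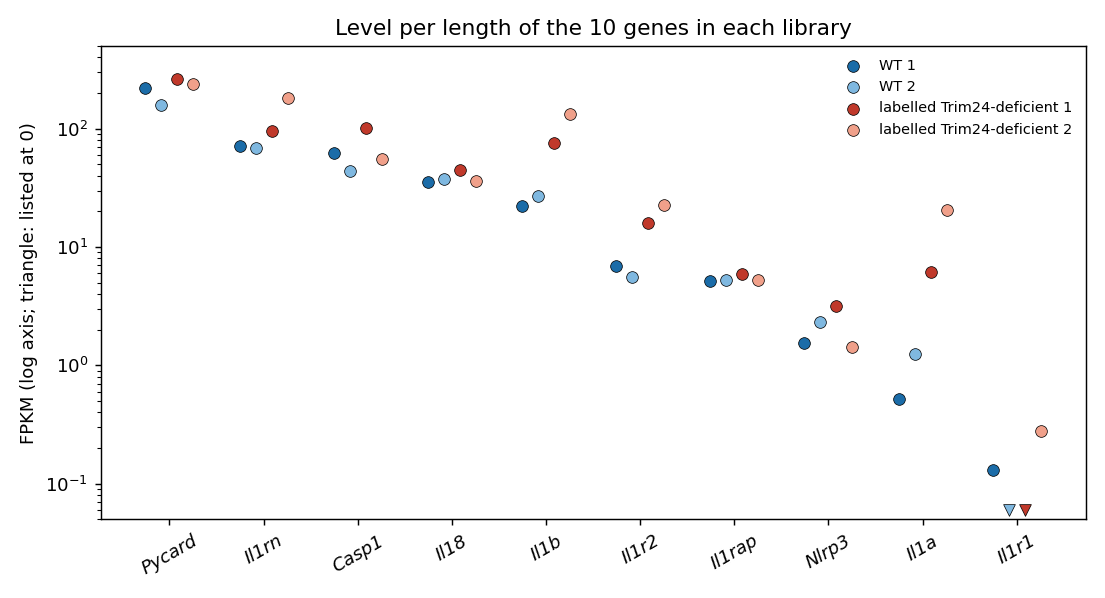
FPKM of the 10 genes in each of the 4 libraries on a log axis, with genes ordered by their WT mean, each point 1 library and triangles for values listed at 0. Il1a, Il1b, Il1r2 and Il1rn are higher in both Trim24-deficient-labelled libraries (red) than in both WT libraries (blue). Pycard and Il1rap are also higher in both, by smaller steps, whereas Casp1, Nlrp3 and Il18 overlap on this scale.

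The cytokine genes Il1a and Il1b showed the largest differences between the groups. Il1a (Entrez 16175), encoding IL-1 alpha, which is active without caspase-1, had expected counts of 5 and 11 in WT replicates 1 and 2 and of 60 and 210 in the Trim24-deficient-labelled replicates 1 and 2. These correspond to 1.01, 2.29, 12.8 and 43.2 CPM. Both Trim24-deficient-labelled libraries were far above both WT libraries, replicate 2 was 3.38 times replicate 1, and the exact Poisson 95% intervals, which cover counting error only, ran up to 4.1 CPM in the higher WT library and from 9.75 CPM in the lower of the other group. The fold change between the groups was 16.8 (log2 fold change 4.07, standard error 0.65).
The size of the Il1a difference depended on single libraries. Its log2 fold change was 2.94 without the Trim24-deficient-labelled library replicate 2, 4.70 without replicate 1 of that label, 3.61 without WT replicate 1 and 4.76 without WT replicate 2. The direction was kept in each case.
Il1b (Entrez 16176), encoding IL-1 beta, was at 28.7 and 33.8 CPM in WT and at 106 and 189 CPM in those labelled Trim24-deficient, on expected counts of 142, 162, 497 and 920. The groups did not overlap, and replicate 2 of the label was again the higher, by 1.79 times. Its mean was 31.2 ± 3.59 CPM in WT and 147 ± 58.8 CPM in the other group (SD, n = 2 each), with a fold change of 4.72 (log2 fold change 2.24, standard error 0.28). With each library left out in turn the log2 fold change ranged from 1.76 to 2.60.

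Both cytokine genes lie close together on chromosome 2 of GRCm38, on the minus strand, 54.4 kb apart. Il1a spans 129299609 to 129310186 and Il1b 129364569 to 129371164, and each has 7 exons in its longest basic GENCODE transcript. Il1a and Il1b were both higher in the Trim24-deficient-labelled libraries and are neighbours, so the sequences around their annotated starts are shown, with motif matches in capitals. Il1r2 and Il1rn, which lie elsewhere, were also higher in both of those libraries, and a part of position in the differences was not tested. The windows (RefSeq, GRCm38.p6) run from 250 bases before to 50 after the start, on the gene strand. The first is chr2:129309923-129310222 and the second chr2:129371090-129371389, both minus strand.
Il1a: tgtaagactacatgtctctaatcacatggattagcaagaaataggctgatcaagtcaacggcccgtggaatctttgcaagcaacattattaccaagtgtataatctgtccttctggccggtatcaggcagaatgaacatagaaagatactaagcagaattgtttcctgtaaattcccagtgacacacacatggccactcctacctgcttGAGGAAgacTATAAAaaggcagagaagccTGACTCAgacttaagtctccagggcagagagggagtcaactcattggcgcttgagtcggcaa
Il1b: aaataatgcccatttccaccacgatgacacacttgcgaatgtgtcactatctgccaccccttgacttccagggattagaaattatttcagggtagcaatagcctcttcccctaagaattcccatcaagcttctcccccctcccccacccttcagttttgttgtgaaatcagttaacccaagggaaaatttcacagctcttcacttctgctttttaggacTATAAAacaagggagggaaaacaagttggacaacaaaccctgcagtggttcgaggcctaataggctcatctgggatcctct
In both windows the letters TATAAA begin about 30 bases before the start, from -32 to -27 in Il1a and from -31 to -26 in Il1b. A TATAAA on the gene strand that begins 45 to 20 bases before the start was found in 2.14% of the 32851 promoter windows of the RefSeq table, and among the 14 windows of the 10 genes in these 2 alone. The Il1a window also holds TGANTCA, the AP-1 motif, from -12 to -6 (7.8% of windows hold it on either strand) and GAGGAA, a PU.1 core, from -41 to -36 (28.3% of windows). The 3 matches do not overlap. The NF-kappaB consensus (8.5% of windows) and the STAT6 motif, TTC and GAA with 4 bases between (7.0% of windows), had no match in these 2 windows, which says only that the letters are absent from these bases. Windows of Il1rn, Il18 and Nlrp3 hold the STAT6 motif. These matches are descriptions of sequence and not of binding.
Other genes of the neighbourhood were examined as well. Within 300 kb of Il1a or Il1b, 7 other genes passed the low-count filter (Zc3h6, Ttl, Polr1b, Chchd5, Slc20a1, Ckap2l and Sirpa). Their log2 fold changes ran from -0.52 (Polr1b, standard error 0.21) to 0.45 (Chchd5, standard error 0.28). Of the 7, 0 were called, against 0.372% of all genes tested, a share too small to judge 7 genes by. Genes on the opposite strand overlap both cytokine genes. Both were too low to be tested and were higher in each labelled library than in WT, at 0.438, 0.902, 1.55 and 2.99 CPM for Gm14023, which overlaps Il1a, and at 1.21, 0.417, 2.35 and 2.11 CPM for Il1bos, which overlaps Il1b, in the order WT replicates 1 and 2 and labelled replicates 1 and 2. Whether the counting used strand is not given in the sources used here, so reads of these partners may not have been separated.

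Of the inhibitors of IL-1, Il1r2 and Il1rn, neither was called, although both Trim24-deficient-labelled libraries were above both WT libraries for each. Il1r2 (Entrez 16178), the decoy receptor, which binds IL-1 without signalling, was at 9.09 and 7.08 CPM in WT and at 22.8 and 32.7 CPM in the other group. All values of the second group were above those of the first, by a fold change of 3.42 (log2 fold change 1.77, standard error 0.30). Il1rn (Entrez 16181), the receptor antagonist, was at 172 and 158 CPM in WT and at 246 and 483 CPM in the Trim24-deficient-labelled libraries, a fold change of 2.21 (log2 fold change 1.14, standard error 0.30). Its groups did not overlap either, but the second group was spread by 1.96 times, and without replicate 2 of the label the log2 fold change was 0.58.
Per length, the antagonist stood closer to the agonists in that group. The ratio of Il1rn FPKM to the summed FPKM of Il1a and Il1b was 3.17 and 2.42 in WT and 1.16 and 1.19 in the Trim24-deficient-labelled libraries. The Il1b to Il1a ratio was 42.3 and 21.8 in WT and 12.2 and 6.47 in the other group. The WT ratios rest on 5 and 11 Il1a counts, with exact Poisson 95% intervals of 1.6 to 11.7 and 5.5 to 19.7 counts. Their size is therefore uncertain. A ratio of transcripts is not a ratio of proteins.

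**Figure D2:**
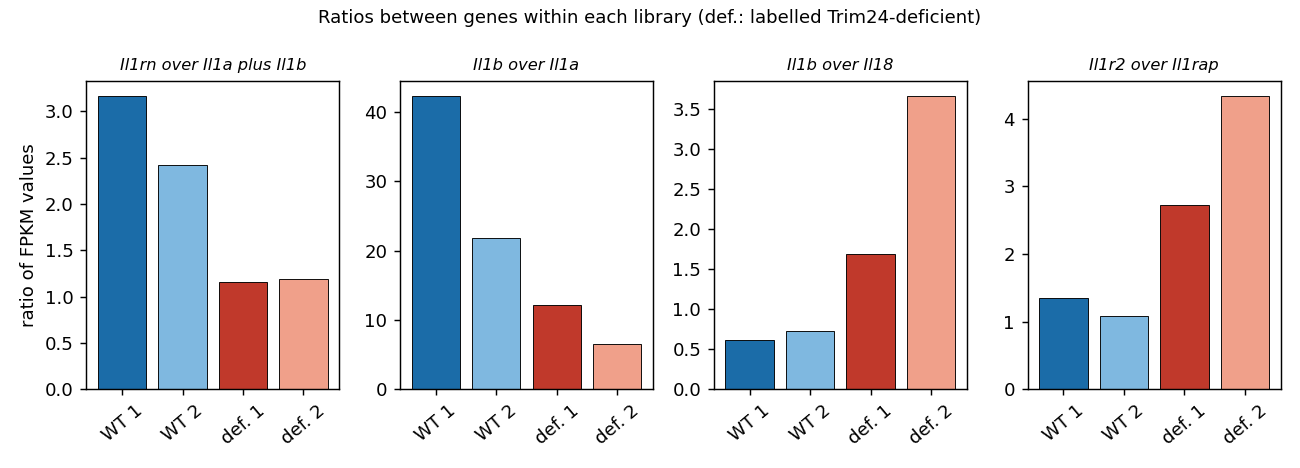
Ratios of FPKM values within each library, 1 bar per library, for the antagonist over the summed agonists, Il1b over Il1a, Il1b over Il18, and the decoy receptor Il1r2 over the co-receptor Il1rap. The first falls from 3.17 and 2.42 in WT to 1.16 and 1.19, and the last rises from 1.35 and 1.08 to 2.73 and 4.34.

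The signalling receptor itself was near the limit of detection. Il1r1 (Entrez 16177) had expected counts of 3 and 0 in WT and of 0 and 7 in the Trim24-deficient-labelled libraries, was removed by the filter on low counts, and gives no fold change. A count of 0 was given a limit of 3 counts (1-sided Poisson 95%). That is 0.67 CPM before TMM in WT replicate 2 and 0.61 CPM in the Trim24-deficient-labelled library replicate 1. The 2-sided 95% interval, as used for Il1a, reaches 3.7 counts. Il1rap (Entrez 16180), the co-receptor shared by the receptors for IL-1, IL-33 and IL-36, was detected at 21.6 and 21.0 CPM in WT and at 27.9 and 22.8 CPM in the other group. Its log2 fold change was 0.25 with a standard error of 0.23, smaller than the error allows to be told from 0. The receptor genes of the family form a cluster on chromosome 1, where Il1r2 (40084692 to 40125230) and Il1r1 (40222480 to 40316201) are 97.2 kb apart. Of the genes beside them, Il1rl2, Il1rl1 and Il18r1 had log2 fold changes of 0.51 (standard error 0.80), -0.89 (0.51) and -0.23 (0.46). Map4k4 was at -0.54 (0.31) and Il18rap, whose groups did not overlap, at 1.04 (0.38). Of these 5 genes, 0 were called, against 0.372% of all genes tested.

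Il18 and the inflammasome genes Pycard, Casp1 and Nlrp3 were not called, with fold changes of 1.23, 1.46, 1.62 and 1.32. Il18 (Entrez 16173), the other caspase-1 substrate among the cytokines, was at 29.3 and 29.6 CPM in WT and at 39.6 and 32.7 CPM in the Trim24-deficient-labelled libraries, a log2 fold change of 0.30 (standard error 0.21). Its FPKM values (35.51, 37.45, 44.63 and 36.26) overlapped between the groups. Il1b was below Il18 per length in WT, with a ratio of 0.62 and 0.722, and above it in the other group, with 1.69 and 3.66.
Pycard (Entrez 66824), the adaptor, was at 459 and 318 CPM in WT and at 595 and 539 CPM in the Trim24-deficient-labelled libraries. The groups did not overlap, but the WT libraries lay further apart than the higher WT library and the lower of the other group, with a log2 fold change of 0.54 (standard error 0.23). Casp1 (Entrez 12362), the protease, was at 93.1 and 62.9 CPM in WT and at 163 and 90.0 CPM in the other group, which overlap (log2 fold change 0.70, standard error 0.29). Nlrp3 (Entrez 216799), the sensor, was at 6.06 and 8.75 CPM in WT and at 13.4 and 6.16 CPM, again with overlap. Its log2 fold change of 0.40 (standard error 0.44) turned to -0.26 without the Trim24-deficient-labelled library replicate 1.
Which of the 2 Trim24-deficient-labelled libraries was the higher depended on the gene. Il1a, Il1b, Il1rn and Il1r2 were higher in replicate 2, by 3.38, 1.79, 1.96 and 1.43 times. Casp1, Nlrp3, Il18, Il1rap and Pycard were lower in replicate 2, at 0.552, 0.459, 0.825, 0.817 and 0.905 times the level in replicate 1.

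**Figure D3:**
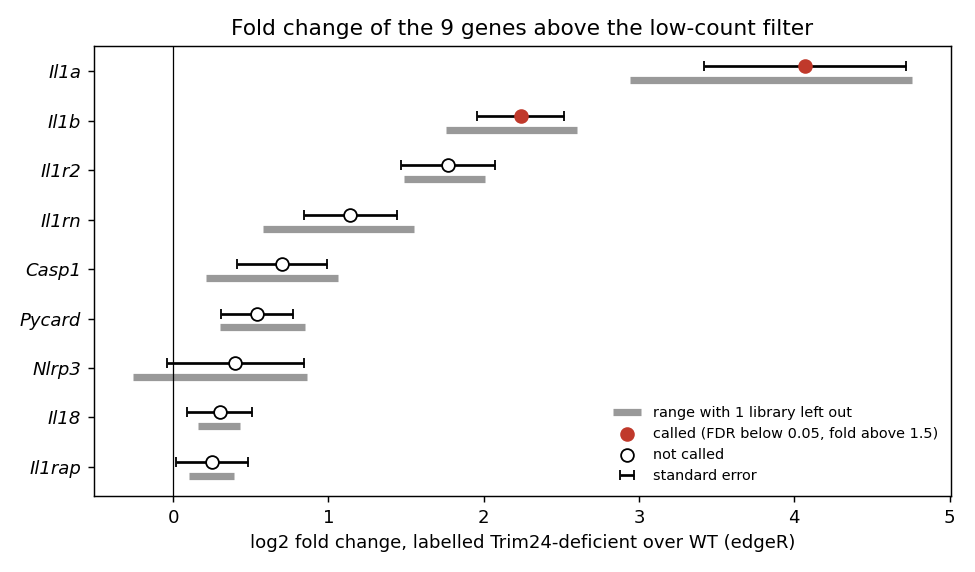
Log2 fold change (Trim24-deficient-labelled libraries over WT) of the 9 genes above the low-count filter, with the standard error as bars and the range with 1 library left out in grey. Il1a at 4.07 and Il1b at 2.24 are the filled points, and the grey range crosses 0 only for Nlrp3.

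Over the whole table, 9 of the 10 genes passed the filter on low counts and 2 of them, Il1a and Il1b, were called in edgeR's quasi-likelihood test (FDR below 0.05, fold change over 1.5), against 0.372% of the 11302 genes tested. Both were higher, a call made for 0.292% of all genes tested, and 0 were lower, against 0.0796%. The contrast was in view when the genes were listed, so nothing is read from that share. For 7 of the 10 genes both WT libraries lay below both of the other group, against 21.5% of all genes tested, and for 0 of the 10 above both, against 23.0%. The median log2 fold change of the 9 genes was 0.70, against -0.01 for all genes tested. The count of called members was 4 without the Trim24-deficient-labelled library replicate 1 (Il1rn and Il1r2 added, 3.46% of all genes called) and 4 without replicate 2 of that label (Il1r2 and Casp1 added, 5.54%). It was 2 without WT replicate 1 (0.563%) and 2 without WT replicate 2 (0.215%). Each of these fits takes its spread from the group that keeps 2 libraries and assumes that the lone library varies alike. It was 4 with DESeq2 (1.38% of all genes called), 5 with a replicate block (5.61%) and 0 with limma on log2(FPKM + 1) (0.207%), where Il1b had a log2 fold change of 1.99 and Il1a of 2.75 on that scale.

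The profile over the 4 libraries was compared with that of 9105 other genes (mean log2 CPM 3 or higher), by the Euclidean distance between centred log2 CPM values. Closest to Il1b were Hp (distance 0.45), an acute-phase protein, Ptgs1 (0.45), a cyclooxygenase, S100a9 (0.46), a calcium-binding alarmin, Fpr1 (0.58), a formyl peptide receptor, and Hdc (0.60), the histamine-forming enzyme. Among the other members, Il1r2 lay at 0.65 and Il1rn at 1.14 from Il1b, and the rest between 1.65 and 2.31. Closest to Il1a were Hdc (1.31), Pira1 (1.46), Saa3 (1.60), Ptgs2 (1.70) and Ms4a8a (1.75), with Il1b at 1.65. Pira1 has near-identical paralogs between which the counting could split reads. Only 4 libraries enter each distance, so the likeness is a description.

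Other genes of the pathway were taken from 6 lists of 96 genes in all, of which 90 had a value and 80 were tested. A single one, Ptgs2, was called, and it was higher, so that 1 of 80 rose and 0 fell, against 0.292% and 0.0796% of all genes tested. The median log2 fold change of the 80 genes was 0.10, and 51 of the 80 were above 0, against 49.4% of all genes tested. With 1 library left out the number called was 13 (without Trim24-deficient-labelled replicate 2, where 5.54% of all genes tested were called), 7 (without replicate 1 of that label, 3.46%), 2 (without WT replicate 1, 0.563%) and 1 (without WT replicate 2, 0.215%).
Among further ligands, receptors and binding proteins of the family, 0 of 6 tested genes were called. Il18bp, which captures IL-18, was at 96.3 and 55.8 CPM in WT and at 344 and 188 CPM in the Trim24-deficient-labelled libraries. The groups did not overlap, and the log2 fold change of 1.80 (standard error 0.33) had an adjusted p of 0.0697 in edgeR's quasi-likelihood test. Per length, Il18bp stood at 1.97 and 1.13 times Il18 in WT and at 5.2 and 3.44 times in the other group. Il18rap, a chain of the IL-18 receptor, differed by a log2 value of 1.04 (standard error 0.38), and Il1rl1, the receptor of IL-33, of -0.89 (0.51). The IL-36 genes Il36a, Il36b, Il36g and Il36rn, and Il1f10, had no value in any library.
Of 19 tested genes of IL-1 receptor signalling, 0 were called, with a median log2 fold change of 0.09. Irak3, an inhibitory kinase homolog of the pathway, was at 39.0 and 41.7 CPM in WT and at 66.7 and 82.4 CPM in the other group (log2 fold change 0.89, adjusted p = 0.130 in edgeR's quasi-likelihood test). The adaptor Myd88 differed by a log2 value of 0.67 (standard error 0.19) and Tab2, which links TRAF6 to the kinase TAK1, of -0.59 (0.19). Both Irak3 and Myd88 were called when Trim24-deficient-labelled replicate 2 was left out.
Inflammasome sensors and regulators gave 0 calls among 17 tested genes, with a median of 0.05. Their largest values were in the guanylate-binding proteins Gbp5 (log2 fold change 1.49, standard error 0.40) and Gbp2 (1.22, 0.35) and in Mefv, which encodes the sensor pyrin (0.97, 0.25). Effectors and proteases gave 0 calls among 12, also with a median of 0.05. Gsdmd, whose product forms the pore through which IL-1 beta leaves the cell, was at 80.4 and 85.4 CPM in WT and at 130 and 115 CPM in the other group (log2 fold change 0.56, adjusted p = 0.253 in edgeR's quasi-likelihood test). Prtn3, a granule protease, differed by a log2 value of 3.24 (standard error 0.77) at only 0.202 to 3.19 CPM, and Ninj1, which ruptures the membrane in lytic death, of -0.47 (0.21).
Of 12 tested transcripts known to be induced by IL-1, 1 was called, and their median log2 fold change was 0.56. Ptgs2, the inducible cyclooxygenase, was at 17.6 and 11.7 CPM in WT and at 61.8 and 105 CPM in the Trim24-deficient-labelled libraries. The difference was 2.51 on the log2 scale (standard error 0.31, adjusted p = 0.0112 by edgeR's quasi-likelihood method, both libraries above WT), the call being lost with limma on log2(FPKM + 1) (adjusted p = 0.0782). Cxcl3, a neutrophil-attracting chemokine, differed by a log2 value of 1.55 (standard error 0.42) and Icam1, an adhesion molecule, of 0.76 (0.24), and neither was called. Many stimuli besides IL-1 induce these transcripts.
Regulators of Il1b transcription and mRNA decay gave 0 calls among 14, with a median of 0.06. Among the larger differences were Fos (log2 fold change -0.79, standard error 0.28) and Hif1a (0.58, 0.19).

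**Figure D4:**
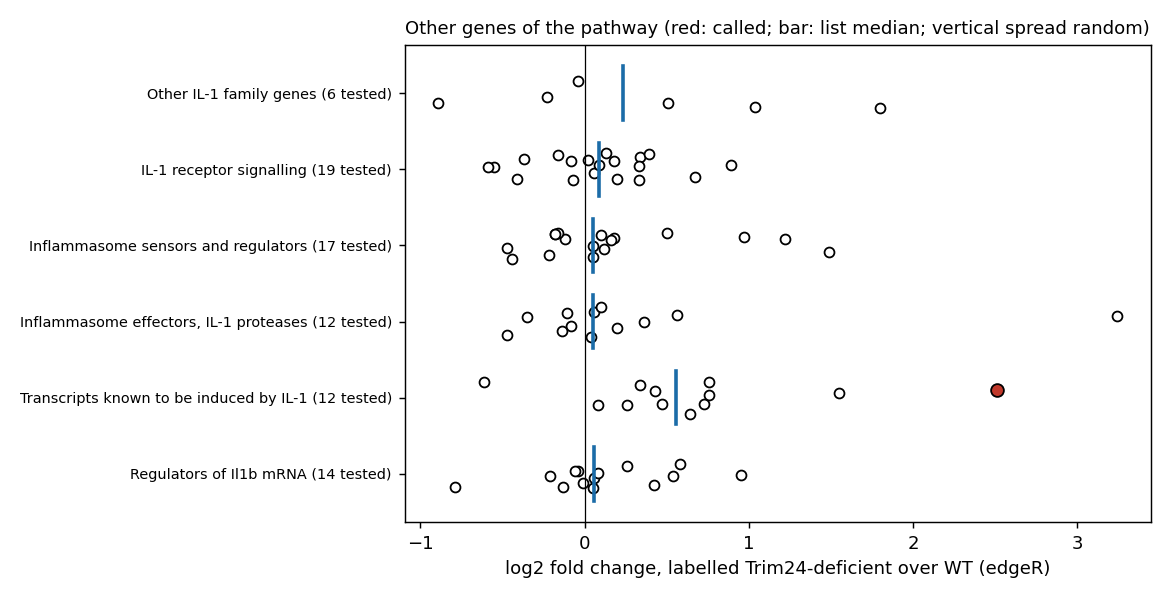
Log2 fold change (Trim24-deficient-labelled libraries over WT) of the 80 tested genes of 6 pathway lists, 1 point per gene, with list medians as blue bars and vertical spread at random. Ptgs2 at 2.51 is the single called gene, and the medians lie between 0.05 and 0.56.

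Transcripts of neutrophils and monocytes, cells that can also make IL-1 and carry IL1R2, moved with the cytokine genes. The 14 neutrophil markers summed to 195 and 240 CPM in WT and to 315 and 524 CPM in the Trim24-deficient-labelled libraries, so the order of the 2 labelled libraries was that of Il1a and Il1b. Of the 9 tested, 0 were called, against 0.372% of all genes tested. A log2 fold change above 0 was found for 8 of the 9 (median 1.53), against 49.4% of all genes tested. S100a8 was at 17.4 and 15.6 CPM in WT and at 35.1 and 118 CPM in the other group, and Csf3r, a growth factor receptor of neutrophils, at 87.1, 97.0, 170 and 157 CPM. Cxcr2, a chemokine receptor of neutrophils, overlapped between the groups (63.5, 83.9, 42.9 and 76.9 CPM). Ly6g, the defining surface marker, was at 0 in WT replicates 1 and 2 and had 2.0 and 0.918 CPM in the others, and Camp and Ngp did not exceed 3 counts in any library.
The 8 monocyte markers summed to 1090 and 1200 CPM in WT and to 2040 and 2320 CPM in the Trim24-deficient-labelled libraries, and Hp was among those called higher. Ly6c2 was at 190, 176, 616 and 295 CPM and Ccr2 at 170, 332, 429 and 408 CPM, whereas F13a1 overlapped between the groups (514, 475, 320 and 1160 CPM). In bulk libraries of sorted cells, more cells of another type and more RNA per cell cannot be told apart, and the part of either marker group in the IL-1 values was not tested.
Marker lists of other cell types were summed in the same way, and their part in the result was not tested. Keratinocyte markers, of a cell type rich in IL-1 alpha, summed to 0.822 to 1.82 CPM, with Krt5, Krt14, Krt1 and Krt15 without a value. Mast cell and basophil markers summed to 0.417 to 2.13 CPM. Dendritic cell markers summed to 94.1 and 75.7 CPM in WT and 141 and 82.9 CPM in the other group, T and NK cell markers to 117, 67.3, 228 and 50.2 CPM, B cell markers to 46.3 to 55.4 CPM, and erythroid markers to 90.1, 234, 8.31 and 105 CPM. Fibroblast and endothelial markers summed to 19.4 and 13.8 CPM in WT and to 40.9 and 28.8 CPM in the other group, without overlap, and the 1 tested gene among them, the endothelial Pecam1, had a log2 difference of 1.42 (standard error 0.44). In 0 of these lists was a gene called, against 0.372% of all genes tested. Of the keratinocyte and the mast cell and basophil lists 0 genes were tested, and of the B cell list 1. The lack of calls is therefore not read as a result about these cell types.

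**Figure D5:**
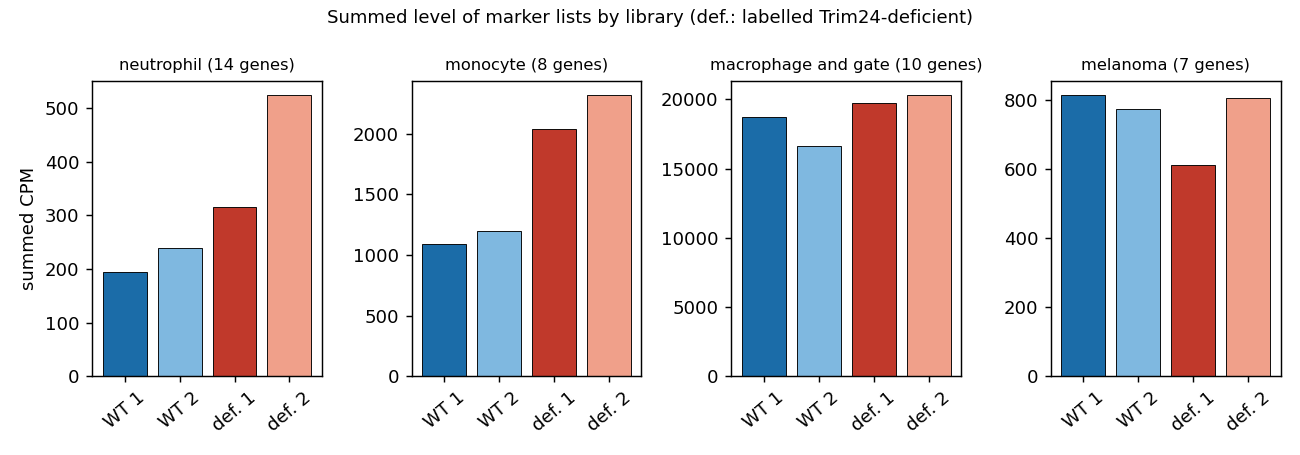
Summed CPM of 4 marker lists in each library, 1 bar per library. Neutrophil markers (195 and 240 against 315 and 524 CPM) and monocyte markers (1090 and 1200 against 2040 and 2320 CPM) are higher in both Trim24-deficient-labelled libraries, and the macrophage list is also above WT in both, by a smaller step.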

How the data were processed

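Per the study's methods, reads had been aligned by the authors to GRCm38/mm10 (Bowtie) and genes quantified with RSEM, versions not given in the sources used here. The deposited values were an expected count per gene, not normalized (about 77% whole numbers), and an FPKM scaled by RSEM to transcript length and library total. A transcript length (another value) stood in the same deposited tables. A gene missing from a table was set to 0, and 16698 of 16739 genes matched a RefSeq symbol.

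Expected counts were rounded and tested with edgeR 4.0.16 in R 4.3.3 (filterByExpr, TMM, glmQLFit and glmQLFTest, Benjamini-Hochberg over 11302 genes, fold change above 1.5 and FDR below 0.05 as in the study's methods). Standard errors are the log2 fold change divided by the square root of F. An exact permutation test of 2 against 2 libraries cannot go below p = 0.333. The library totals of 4476122 to 5172407 limit low genes.

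The 10 genes, the pathway and marker lists and the naming rule were chosen with earlier results of these data known. Named are the 10 genes, called list genes, the 3 largest changes of each pathway list (some genes the rule names are not reported here), 5 nearest profiles to Il1a and Il1b, and up to 3 abundant genes of the neutrophil and monocyte lists. Motifs, the 300 kb neighbourhood, Ly6g, Camp, Ngp, the named fibroblast and endothelial genes and the keratin genes were chosen after values were seen. Replicates differed beyond sampling noise (chi-square per degree of freedom 8.58 and 19.2). Alternatives used DESeq2 1.42.0 and limma 3.58.1. The edgeR, DESeq2 and length-corrected fits were checked on simulated counts.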

Additional observations from a re-analysis of the deposited data

How the results depend on the processing

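The number of called members, 2 of 10, was 5 with the replicate block, 4 with DESeq2, 3 without a filter on low counts (Il1r2 added), 1 with library totals without TMM, with upper-quartile scaling, with at least 10 counts in every library (Il1a is then not tested) and with the length trend removed, and 0 with limma on log2(FPKM + 1), on log2(FPKM + 0.1) and on log2(FPKM + 1) for all genes. Il1b was the member called wherever 1 was. No share of all genes called is given for the fits that changed the scaling, the gene filter, the length trend or the FPKM constant. Changed counts in those fits are not read as a result about the members or the pathway lists. Without 1 library each, 2 to 4 members were called. The number called over the pathway lists, 1, was 15 with the replicate block, 4 with DESeq2, 2 without a filter on low counts, 0 in the 3 limma fits, and 1 to 13 without 1 library each. Over all genes, 42 calls became 634 with the replicate block, 156 with DESeq2, and 25 to 652 without 1 library each (652 without Trim24-deficient-labelled replicate 2, 405 without replicate 1 of that label, 66 without WT replicate 1 and 25 without WT replicate 2). The causes were not tested. Directions of the tested members were kept in every fit except that Nlrp3 was at -0.26 when Trim24-deficient-labelled replicate 1 was left out (0.86 when replicate 2 was). The order by level was the same with TPM, with 3 members at 1 rank in all libraries.

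Library totals without TMM moved the median log2 fold change of all genes to -0.154, against -0.006, so the 9 tested members kept their sign by that scaling with values from 0.10 (Il1rap) to 3.91 (Il1a). Across genes, log2 fold changes correlated with transcript length (Spearman's rho -0.249, genes not being independent), and with that trend removed Il1a was at 4.0 and Il1b at 2.14. The replicate numbers 1 and 2 share only a number, since no source pairs the mice. Same-numbered libraries deviated together at r = 0.165 over 11302 genes, which for 2 pairs is no test of pairing. Depth limits Il1r1 (0 to 7 counts) and Il1a in WT (5 and 11 counts).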
